A study of Mus musculus with 167 samples.

Results

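The 34 genes described here encode the liver's machinery for burning fatty acids and making ketone bodies, and 33 of them were measured and tested among 12622 tested genes of 18193 with a single gene symbol. They were chosen by function, with earlier results of these data known. Of the tested members, 18 encode mitochondrial enzymes, 9 encode peroxisomal proteins, 3 encode enzymes found in both compartments, and 3 (Cd36, Fabp1 and Ppara) serve uptake, binding or transcriptional control. Acsl1, which activates long-chain fatty acids, was not analysed here because none of the probe sets used carried its symbol alone. Each gene was represented by the probe set with the highest mean level over all arrays.

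RNA came from the livers of 167 male C57BL/6 mice, 1 Affymetrix array per animal, in 36 groups of 3 to 5. The 3 genotypes were wild type, a knock-out of both nuclear receptors CAR and PXR (CARKO-PXRKO), and a line with human CAR and PXR replacing the mouse receptors (CARh-PXRh, here humanized). All are labelled 9 to 11 weeks old, which the protocol text gives as the age at the start of the time course. In each genotype 1 arm drank water with phenobarbital, at 0.05% (wt/vol) per the treatment text, and the other drank water without it. Animals were killed after 1, 7, 14, 28 or 91 days of dosing, or at day 119, after 4 weeks without the drug. All arms share the C57BL/6 background, and the labels name no cell type or promoter to which the receptor changes are limited. Because whole liver was assayed, fewer cells of a type and less RNA per cell cannot be told apart.

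Long-chain fatty acids enter mitochondria as carnitine esters, through Cpt1a in the outer membrane, the Slc25a20 carrier and Cpt2 in the inner membrane. Repeated cycles of dehydrogenation, hydration, dehydrogenation and thiolysis then release acetyl-CoA, which hepatocytes turn into ketone bodies. Peroxisomes shorten very-long-chain and dicarboxylic acids by a parallel set of enzymes and hand the products on as carnitine esters. The receptor PPARα, encoded by Ppara, binds DNA with RXR and drives many of these genes in fasted liver. CAR and PXR are related receptors that sense foreign compounds, and phenobarbital is a classical activator of CAR.

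PPARα with RXR binds a direct repeat of AGGTCA with 1 base between the copies, and CAR or PXR with RXR can bind repeats with 4 bases between. RefSeq promoter sequences (GRCm38.p6, 250 bases before to 50 after the start) were at hand for 27 of the 33 tested members, as 29 promoters. Both strands were searched for the 1-base and the 4-base repeat with at most 1 mismatch over the 12 bases of the copies. The 1-base repeat was found in 1 of the 29 promoters (3.45%), against 182 of all 32851 promoters of the table (0.554%). The 4-base repeat was found in 0 of 29, against 82 of 32851 (0.25%). The exact single copy AGGTCA, which may be a copy within a repeat, lay in 6 of 29 (20.7%), those of Acadm, Acadvl, Cd36, Cpt1a, Fabp1 and Scp2, against 5340 of all promoters (16.3%). The 3 promoters below stand for the range found: Fabp1 (chr6:71199629-71199878, plus strand) with the repeat, Cpt1a (chr19:3323051-3323300, plus strand) with a single copy, and Hadhb (chr5:30155003-30155252, plus strand) with neither. Capitals mark the matches, which lie on the minus strand. Each single copy reads AGGTCA there, and the Fabp1 repeat holds 1 such copy and a second copy with 1 mismatch.
Fabp1: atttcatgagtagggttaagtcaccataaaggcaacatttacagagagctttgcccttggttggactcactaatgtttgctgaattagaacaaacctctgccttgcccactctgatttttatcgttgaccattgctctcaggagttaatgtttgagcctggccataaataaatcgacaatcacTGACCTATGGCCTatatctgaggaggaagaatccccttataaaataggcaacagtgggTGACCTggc
Cpt1a: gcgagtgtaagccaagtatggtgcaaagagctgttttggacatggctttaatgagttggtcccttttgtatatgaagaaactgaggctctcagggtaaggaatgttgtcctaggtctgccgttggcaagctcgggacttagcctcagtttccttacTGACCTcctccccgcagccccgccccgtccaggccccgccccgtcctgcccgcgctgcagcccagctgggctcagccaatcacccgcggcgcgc
Hadhb: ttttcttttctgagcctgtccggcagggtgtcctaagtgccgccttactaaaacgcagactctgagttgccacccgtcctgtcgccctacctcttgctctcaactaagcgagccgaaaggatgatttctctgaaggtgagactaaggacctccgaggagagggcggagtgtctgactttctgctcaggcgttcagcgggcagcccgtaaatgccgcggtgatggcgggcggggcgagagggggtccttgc
In Fabp1 the repeat began 67 bases before the start. In Cpt1a the single copy began 94 bases before it. Hadha, which encodes the partner subunit of Hadhb, starts 273 bases away on the opposite strand of chromosome 5, so that the Hadhb promoter lies between both starts. A match describes these letters and is not evidence of binding.

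The labels were checked on the targeted genes first. The mean log2 level of Nr1i3, which encodes CAR, was 8.42 in wild-type controls, 4.93 in knockout controls and 5.08 in humanized controls, and that of Nr1i2, which encodes PXR, was 7.52, 3.58 and 3.76. The human receptors were not analysed here. Cyp2b10, the standard CAR target, averaged 6.58 in wild-type controls and 12.01 in treated wild-type mice. It averaged 5.53 and 5.66 in the knockout arms and 8.12 and 12.12 in the humanized arms. These means cover all 6 days, with the animals of day 119 that were off the drug. Over the dosing days the log2 difference of Cyp2b10 was 6.50 in wild-type, 0.17 in knockout and 4.71 in humanized mice. Treated humanized animals 6026 and 6030 of day 119 were nearly identical and were counted as 1 sample. Arrays 4019 and 4024 of treated knockouts matched as closely, yet the former is labelled day 28 and the latter day 91. Each stayed in its labelled group. In 19 livers the mean log2 level of 6 pancreas acinar markers exceeded 8, which included 7 wild-type controls, 4 treated wild-type mice, 3 and 3 knockout mice and 1 and 1 humanized mice. Hepatocyte markers were present in every arm: the mean level of 7 of them lay between 13.5 and 13.9 in every animal.

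Over the 5 dosing days, most of the fatty acid oxidation genes were lower under phenobarbital in wild-type and humanized livers. In wild-type mice Fabp1 fell by 3.3%, the smallest called fall, and the regulator Ppara fell by 29.4%, the largest. In wild-type mice (22 control and 24 treated) 24 of 33 members were lower and 1 higher at an adjusted p under 0.05, against 19.7% lower and 11.8% higher of all genes tested. In humanized mice (24 and 23) 19 were lower and 3 higher, against 17.5% and 14.9%. In knockout mice (22 and 24) 7 were lower and 2 higher, against 11% and 8.64%, so that the share of higher members there was no larger than that of all genes. A fit of only the compared groups called 4 lower and 1 higher in the knockout. The median log2 difference over the members was −0.12 in wild-type, −0.0048 in knockout and −0.09 in humanized mice, beside −0.0134, 0.00761 and −0.00172 over all genes. Of the 24 members lower in wild-type mice, 18 (75%) were also lower in humanized mice, where they made up 94.7% of the 19. All 7 members lower in the knockout were lower in both other genotypes: Ppara, Cpt1a, Acat1, Etfdh, Etfa, Eci2 and Scp2. Cd36 was the only member called higher in all 3. The plot of differences by gene shows most mitochondrial members left of 0 in wild-type and humanized livers, with most knockout points near 0. Cpt1a, at −0.31, is the lowest mitochondrial point in the knockout, and Etfdh, Acat1 and Etfa were also called lower there.

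**Figure D1:**
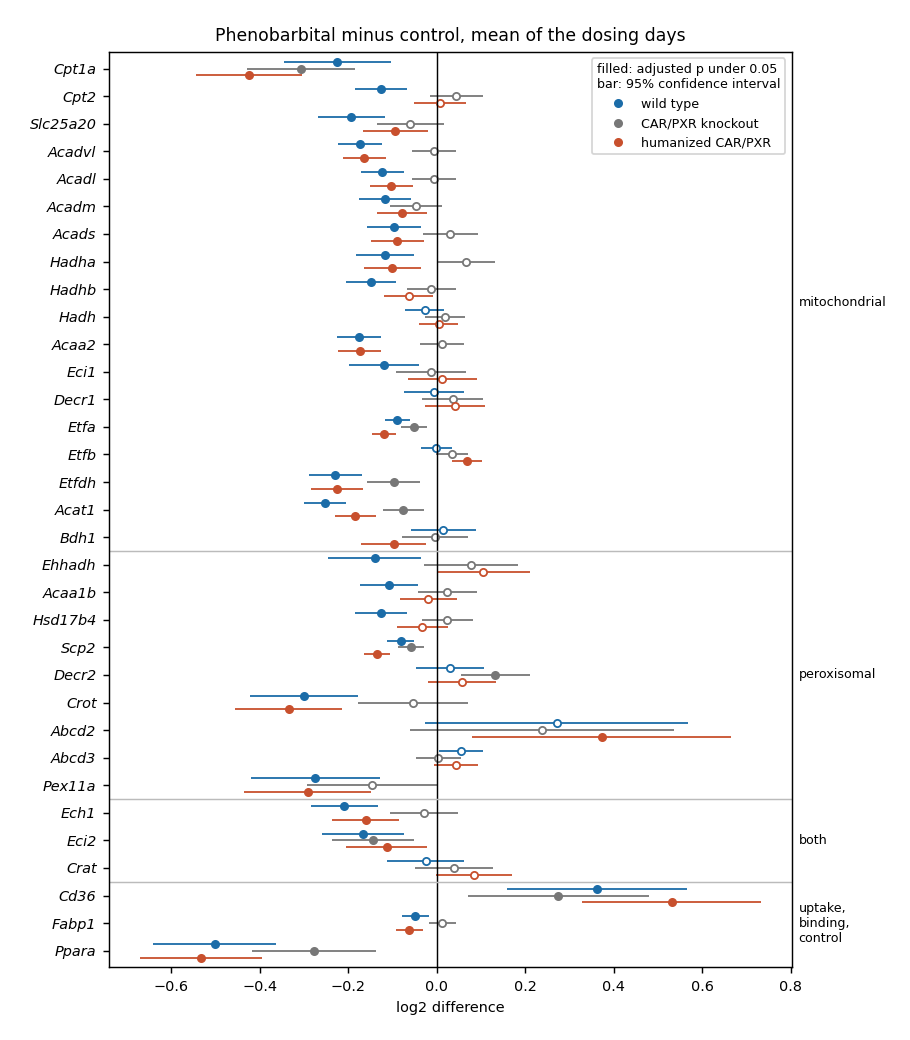
Log2 difference between phenobarbital and control livers, mean of dosing days 1 to 91, for each of the 33 tested members in wild-type, CAR/PXR knockout and humanized mice; bars are 95% confidence intervals and filled points passed an adjusted p of 0.05. Ppara has the lowest wild-type value, −0.50, and Cd36 the highest humanized value, 0.53.

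Ppara, which encodes the receptor that drives much of the pathway, fell in all 3 genotypes. In wild-type mice its log2 level had a low of 9.54, a median of 10.11 and a high of 10.86 in controls, and 9.28, 9.67 and 10.28 under phenobarbital. In knockout mice the controls spanned 9.56 to 10.88 with a median of 10.26, and the treated animals 9.39 to 10.48 with a median of 9.91. The humanized controls spanned 9.69 to 10.56 with a median of 9.99, and the treated animals 9.02 to 9.95 with a median of 9.48. The arms overlapped in every genotype, with the treated median below the control median each time. The mean difference was −0.50 ± 0.0704 (SE; adjusted p = 2.32e-09) in wild-type, −0.28 ± 0.0709 (adjusted p = 0.00223) in knockout and −0.53 ± 0.0696 (adjusted p = 1.58e-10) in humanized mice. Within single days the groups could separate. On day 14 the humanized controls read 9.89, 9.95, 10.01, 10.05 and 10.56 and the treated animals 9.02, 9.19, 9.31, 9.32 and 9.66. On day 28 the wild-type controls read 10.01, 10.02, 10.03, 10.23 and 10.41 and the treated animals 9.28, 9.37, 9.44, 9.67 and 9.81. Every treated animal lay below every control in both of these sets. In the knockout on day 14 the controls (10.12, 10.34, 10.49, 10.69) and the treated animals (9.69, 9.77, 9.81, 10.28, 10.47) overlapped.

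The carnitine shuttle was lower at its entry in all 3 genotypes, and its carrier was lower in wild-type and humanized mice. Cpt1a, the outer-membrane enzyme that controls the rate of entry, had a low of 10.14, a median of 10.55 and a high of 11.06 in wild-type controls, and 9.88, 10.41 and 10.77 in treated mice. Knockout controls spanned 10.32 to 11.41 with a median of 10.89, and treated knockouts 10.26 to 10.90 with a median of 10.53. In humanized mice the controls spanned 10.42 to 11.13 with a median of 10.64 and the treated animals 9.93 to 10.83 with a median of 10.18. The arms overlapped in each genotype, least in humanized mice. The difference of Cpt1a was −0.22 ± 0.0613 (adjusted p = 0.00221) in wild-type, −0.31 ± 0.0617 (adjusted p = 9.64e-05) in knockout and −0.42 ± 0.0606 (adjusted p = 3.66e-09) in humanized mice. Its level thus fell by 14.4%, fell by 19.2% and fell by 25.5% in that order. On day 14 the humanized controls read 10.42, 10.52, 10.62, 10.77 and 11.13 and the treated animals 9.93, 9.94, 10.02, 10.06 and 10.35, with no overlap. On day 28 the knockout controls read 10.67, 10.78, 10.90, 10.99 and 11.41 and the treated animals 10.33, 10.35, 10.46, 10.53 and 10.54, again with no overlap. Slc25a20, the carrier that exchanges acylcarnitine for carnitine, was lower by −0.19 ± 0.038 in wild-type and by −0.09 ± 0.0376 (adjusted p = 0.0448) in humanized mice. The humanized call for Slc25a20 was lost when any 1 of 19 animals was left out, and without the livers with pancreas markers it was −0.09 (adjusted p = 0.0627). Cpt2, which regenerates acyl-CoA inside, was lower in wild-type mice at −0.13 ± 0.03 and stood at 0.04 in the knockout and 0.01 in humanized mice.

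The dehydrogenases that open each cycle were lower in wild-type and humanized mice and did not pass in the knockout. Acadvl, for very-long-chain substrates, differed by −0.17 ± 0.0249 in wild-type, −0.01 ± 0.025 in knockout and −0.16 ± 0.0246 in humanized mice. Acadl, for long chains, stood at −0.12, −0.01 and −0.10, Acadm, for medium chains, at −0.12, −0.05 and −0.08, and Acads, for short chains, at −0.10, 0.03 and −0.09, with the wild-type and humanized values passing the test. The humanized call for Acadm was lost without any 1 of 5 animals. Hadha and Hadhb, the subunits of the trifunctional protein that runs the next steps on long chains, fell by 0.12 and 0.15 on the log2 scale in wild-type mice. In humanized mice Hadha passed at −0.10 and Hadhb did not at −0.06 (adjusted p = 0.068). Acaa2, the thiolase that ends the cycle, was lower at −0.17 in both wild-type and humanized mice and stood at 0.01 in the knockout. The short-chain dehydrogenase Hadh and Decr1, a reductase for unsaturated chains, did not pass in any genotype, with differences between −0.03 and 0.04. Eci1, an isomerase for unsaturated chains, was called lower in wild-type mice, at −0.12 ± 0.0401 (adjusted p = 0.015), and the value was −0.06 (adjusted p = 0.326) without the livers with pancreas markers.

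The electron carriers split. Etfdh, which passes electrons from these dehydrogenases to ubiquinone, had a low of 11.13, a median of 11.26 and a high of 11.51 in wild-type controls against 10.85, 11.06 and 11.24 in treated mice. Its humanized controls spanned 11.03 to 11.42 with a median of 11.19 and the treated animals 10.64 to 11.11 with a median of 10.99, while knockout medians were 11.34 and 11.19. Etfdh was lower in all 3 genotypes, by −0.23 ± 0.0304 in wild-type, −0.10 ± 0.0306 in knockout and −0.23 ± 0.03 in humanized mice. On day 7 the humanized controls read 11.14, 11.18, 11.18, 11.18 and 11.20 and the treated animals 10.79, 10.87, 10.90 and 10.99, which did not overlap. The other probe set of Etfdh had the opposite sign in the knockout dosing mean and did not pass. Etfa, a subunit of the electron transfer flavoprotein, was lower by −0.09, −0.05 and −0.12 in the same order. Its partner Etfb had medians of 11.96 and 11.98 in wild-type and 11.89 and 11.91 in knockout mice (control, then treated). Humanized Etfb medians were 11.88 and 11.94, and it was higher there by 0.07 ± 0.0176 (adjusted p = 0.00107). On day 28 the humanized controls read 11.78, 11.90, 11.91 and 11.92 and the treated animals 11.89, 11.99, 12.04, 12.06 and 12.10, with 1 treated animal inside the control range.

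Acat1, the thiolase that makes acetoacetyl-CoA at the start of ketogenesis, had the smallest adjusted p of any member in wild-type mice. Its difference was −0.25 ± 0.0237 there (its level fell by 16.1%, adjusted p = 1.92e-17), −0.08 ± 0.0239 (adjusted p = 0.0161) in the knockout and −0.18 ± 0.0235 (adjusted p = 6.18e-11) in humanized mice. The knockout call for Acat1 was lost without animal 3007 (adjusted p = 0.0539). On day 7 the wild-type controls read 12.53, 12.54, 12.55 and 12.60 and the treated animals 12.24, 12.24, 12.25 and 12.25. On day 91 the controls read 12.50, 12.62, 12.63 and 12.65 and the treated animals 12.35, 12.45, 12.50, 12.50 and 12.58. The groups were apart on day 7 and overlapped on day 91. Bdh1, which turns acetoacetate into the main circulating ketone body, stood at 0.01 in wild-type and −0.01 in knockout mice and was lower at −0.10 ± 0.0371 (adjusted p = 0.0328) in humanized mice, a call lost without any 1 of 7 animals.

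Among peroxisomal members, Crot and Pex11a were lower in wild-type and humanized mice. Crot, which exports shortened acyl groups as carnitine esters, had a low of 12.27, a median of 12.46 and a high of 13.07 in wild-type controls and 11.85, 12.19 and 12.67 in treated mice. In humanized mice the controls spanned 12.18 to 12.81 with a median of 12.50 and the treated animals 11.75 to 12.60 with a median of 12.12. Knockout medians were 12.50 and 12.38. The differences of Crot were −0.30 ± 0.062, −0.05 ± 0.0624 and −0.33 ± 0.0613 in wild-type, knockout and humanized mice, so that its level fell by 18.8% in wild-type and fell by 20.7% in humanized mice. On day 1 the humanized controls read 12.48, 12.49, 12.62, 12.79 and 12.81 and the treated animals 11.75, 12.07, 12.10, 12.31 and 12.60, so that 1 treated animal reached the control range. The other probe set of Crot had the opposite sign in wild-type and humanized mice and did not pass. Pex11a, which promotes peroxisome division, had medians of 9.45 and 9.15 in wild-type, 9.82 and 9.61 in knockout and 9.91 and 9.58 in humanized mice (control, then treated). Pex11a differed by −0.27 ± 0.0733 (adjusted p = 0.00176), −0.15 ± 0.0738 (adjusted p = 0.154) and −0.29 ± 0.0724 (adjusted p = 0.000661). On day 14 the wild-type controls read 9.31, 9.52, 9.64 and 10.16 and the treated animals 8.92, 9.06, 9.07, 9.14 and 9.17, with no overlap.

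The peroxisomal cycle enzymes gave smaller and less uniform values. Ehhadh, the bifunctional enzyme that is a classical PPARα target, had medians of 11.57 and 11.51 in wild-type, 11.70 and 11.71 in knockout and 11.62 and 11.73 in humanized mice (control, then treated), with ranges that overlapped almost wholly. Its difference was −0.14 ± 0.0533 (adjusted p = 0.0328) in wild-type mice, 0.08 ± 0.0537 in the knockout and 0.11 ± 0.0527 (adjusted p = 0.117) in humanized mice. The wild-type call for Ehhadh was lost without any 1 of animals 1004, 1007, 1008, 1014, 2002, 2009, 2012 and 2024, with adjusted p-values up to 0.0727. Its single dosing days in wild-type mice ran from −0.42 to 0.14, with 4 lower and 1 higher. Hsd17b4, the other multifunctional enzyme, was lower by −0.13 ± 0.0293 in wild-type mice and stood at 0.02 and −0.03 in the others. Acaa1b, the thiolase, was lower by −0.11 ± 0.0333 in wild-type mice, and −0.08 (adjusted p = 0.108) without the livers with pancreas markers. Its single dosing days there ran from −0.23 to 0.14, with 4 lower and 1 higher. On 1 day every treated wild-type animal lay above every control, and on 0 days every one lay below. Acaa1b is nearly identical to Acaa1a, so that its probe set may read both. Scp2, which carries sterols and thiolyses branched chains, was lower in all 3 genotypes, by −0.08, −0.06 and −0.13. Its probe sets disagreed: their mean gave −0.0339 in wild-type, 0.026 in knockout and −0.0338 in humanized mice, none of which passed, and another probe set was called higher in humanized mice, by 0.22. Decr2, a reductase for unsaturated chains, was higher in the knockout by 0.13 ± 0.0395 (adjusted p = 0.00999). Its knockout controls spanned 9.21 to 9.93 with a median of 9.64 and the treated animals 9.49 to 9.91 with a median of 9.70. On day 7 the knockout controls read 9.21, 9.27 and 9.38 and the treated animals 9.49, 9.53, 9.75 and 9.86, with no overlap, while on day 28 the treated values (9.66 to 9.91) lay within the controls' (9.47 to 9.89) but for 1 animal.

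The transporters that admit acyl-CoA to peroxisomes were not called lower. Abcd3 stood at 0.05, 0.003 and 0.04 over the dosing days and passed in no genotype. On day 1, however, Abcd3 was higher in each genotype, by 0.20 ± 0.0544 (adjusted p = 0.00663) in wild-type, 0.20 ± 0.0544 (adjusted p = 0.013) in knockout and 0.23 ± 0.0544 (adjusted p = 0.00126) in humanized mice. The wild-type controls of Abcd3 read 12.88, 13.06, 13.09, 13.11 and 13.11 and the treated animals 13.15, 13.26, 13.26, 13.27 and 13.32. Among humanized mice, controls read 12.96, 13.11, 13.15, 13.16 and 13.19 and the treated animals 13.26, 13.31, 13.32, 13.39 and 13.46. Neither pair of groups overlapped, whereas in the knockout 1 control (13.23) lay above the lowest treated animal (13.19). The wild-type call for Abcd3 was lost without animal 1003 and the knockout call without 3001 or 4002. Without the livers with pancreas markers the values of Abcd3 were 0.16 (adjusted p = 0.257) in wild-type and 0.17 (adjusted p = 0.0643) in knockout mice. These livers included wild-type controls 1001, 1002 and 1003, treated wild-type 2004 and treated knockout 4002 of day 1, so that fewer samples remained. Abcd2, measured near the array median, was higher in humanized mice by 0.37 ± 0.148 (adjusted p = 0.0422), a call lost without any 1 of 24 animals. Its humanized controls spanned 4.51 to 6.89 with a median of 5.06 and the treated animals 4.92 to 6.21 with a median of 5.68, and the wild-type and knockout differences of 0.27 and 0.24 did not pass.

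Of the enzymes found in both compartments, Ech1 and Eci2 were lower. Ech1, a dienoyl-CoA isomerase, had a low of 11.16, a median of 11.36 and a high of 11.68 in wild-type controls and 10.83, 11.18 and 11.60 in treated mice. Its medians were 11.38 and 11.32 in knockout and 11.39 and 11.18 in humanized mice. The differences of Ech1 were −0.21 ± 0.0387, −0.03 ± 0.039 and −0.16 ± 0.0383. On day 14 the wild-type controls read 11.46, 11.49, 11.53 and 11.58 and the treated animals 11.09, 11.11, 11.21, 11.26 and 11.32, which did not overlap. Eci2, an enoyl-CoA isomerase, was lower in all 3 genotypes, by −0.17 ± 0.0467, −0.14 ± 0.047 and −0.11 ± 0.0461 (adjusted p = 0.003, 0.0191 and 0.0475). Without the livers with pancreas markers Eci2 stood at −0.13 (adjusted p = 0.0641) in the knockout and −0.10 (adjusted p = 0.0789) in humanized mice, and its humanized call was lost without any 1 of 23 animals. Crat, which buffers short acyl groups as carnitine esters, passed in no genotype.

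Cd36, the membrane protein that takes up fatty acids, was higher in all 3 genotypes, whereas most called members were lower. Its wild-type controls had a low of 7.44, a median of 8.16 and a high of 9.99 and the treated mice 7.70, 8.54 and 10.70. Knockout controls spanned 8.10 to 9.995 with a median of 8.91 and treated knockouts 7.89 to 10.25 with a median of 9.23. The humanized controls spanned 8.23 to 10.41 with a median of 8.87 and the treated animals 8.03 to 10.58 with a median of 9.45. The arms overlapped widely, and levels also differed by day: wild-type controls of Cd36 read 7.44 to 8.10 on day 1 and 9.25 to 9.99 on day 91. The difference within days was 0.36 ± 0.103 (a rise of 28.5%, adjusted p = 0.00352) in wild-type, 0.28 ± 0.104 (adjusted p = 0.0471) in knockout and 0.53 ± 0.102 (a rise of 44.5%, adjusted p = 9.37e-06) in humanized mice. On day 28 the humanized controls read 8.50, 8.58, 8.88 and 9.00 and the treated animals 9.38, 9.45, 9.78, 9.81 and 9.94, all above the controls. The knockout call for Cd36 was lost without any 1 of 27 animals, with adjusted p-values up to 0.11. Fabp1, the abundant fatty acid carrier of hepatocytes whose promoter held the repeat, was lower by −0.05 ± 0.0157 in wild-type and −0.06 ± 0.0155 in humanized mice. Its knockout value was 0.01. Without the livers with pancreas markers its wild-type value was −0.03 (adjusted p = 0.208).

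The response itself was then compared between genotypes, as the difference of the dosing-day effects. In the knockout 14 of 33 members responded less negatively than in wild-type mice and 0 more negatively, against 7.67% and 5.77% of all genes. The count was 8 under median centring. The 14 were 9 mitochondrial members, 4 peroxisomal members and Ech1. Crot differed by 0.25 ± 0.088 (adjusted p = 0.0448), Ehhadh by 0.22 ± 0.0757 (adjusted p = 0.0383), Acaa2 by 0.19 ± 0.0357 (adjusted p = 3.06e-05), Hadha by 0.18 (adjusted p = 0.00308) and Acat1 by 0.18 ± 0.0337 (adjusted p = 2.82e-05). Cpt2, Acadvl, Acadl, Acads, Hadhb, Etfdh, Acaa1b and Hsd17b4 differed by 0.12 to 0.17. The calls for Crot, Ehhadh, Acads and Acaa1b were lost without any 1 of 42, 19, 19 and 53 animals, and without the livers with pancreas markers Ech1 stood at 0.15 (adjusted p = 0.0827) and Acaa1b at 0.12 (adjusted p = 0.133). Averaging all probe sets gave 0.09 (adjusted p = 0.38) for Crot and 0.05 (adjusted p = 0.525) for Hadhb. Cpt1a did not pass, at −0.08 ± 0.087 with a 95% confidence interval of −0.25 to 0.09, nor did Ppara at 0.22 ± 0.1 (0.03 to 0.42, adjusted p = 0.132) or Cd36 at −0.09 ± 0.146 (−0.38 to 0.20).

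Between humanized and wild-type mice 0 of 33 responses differed after adjustment by limma, where 1.88% of all genes did in either direction. At an unadjusted p under 0.05, 7 were higher and 3 lower, where 8.71% and 4.8% of all genes were. Array weights called 2 members, and averaged probe sets or leaving out the livers with pancreas markers called 1. The closest was Ehhadh at 0.25 ± 0.0749 (0.10 to 0.39, adjusted p = 0.0588), followed by Cpt2 at 0.13 (adjusted p = 0.0777). Cpt1a stood at −0.20 ± 0.0862 (−0.37 to −0.03, adjusted p = 0.258), Ppara at −0.03 (−0.23 to 0.17) and Crot at −0.03 (−0.21 to 0.14). Against the knockout, 9 humanized responses were more negative and 0 less, against 4.49% and 5.66% of all genes: Crot at −0.28 ± 0.0875 (adjusted p = 0.0221), Acaa2 at −0.19 (adjusted p = 3.49e-05), Hadha at −0.17 (adjusted p = 0.00924), Acadvl at −0.16 (adjusted p = 0.000592), and Etfdh, Acat1, Scp2, Fabp1 and Etfa between −0.13 and −0.07. These comparisons share the animals of 1 genotype and are not independent of each other. Averaging all probe sets called 5 and gave −0.10 (adjusted p = 0.376) for Crot, and the Etfdh call was lost without any 1 of 13 animals.

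Single days of wild-type mice held between 0 and 19 called members, with the 19 on day 14. On day 1, 7 members were lower and 1 higher (6.97% and 5.02% of all genes), led by Ppara at −0.50 (adjusted p = 0.0147) and Cpt1a at −0.40 (adjusted p = 0.0285). The Ppara call was lost without 1004 or 2004 and the Cpt1a call without any 1 of 5 animals. On day 7, Acat1 at −0.31 and Ech1 at −0.32 were lower and 0 higher (0.61% and 2.11%), and the Ech1 call was lost without any 1 of 5 animals. On day 14, 19 were lower and 0 higher (5.68% and 3.11%), among them Ppara at −0.67, Pex11a at −0.58, Crot at −0.44, Ehhadh at −0.42 and Acat1 at −0.34. On day 28, 6 were lower and 1 higher (1.93% and 3.61%), with Ppara at −0.63 ± 0.15 (adjusted p = 0.00262), Acat1 at −0.30 and Cd36 at 0.68, a call lost without any 1 of 6 animals. On day 91 limma called 0 members, where 2.13% of all genes were called in either direction, and at an unadjusted p under 0.05 there were 7 lower and 1 higher, where 8.63% and 5.69% of all genes were. By sign alone, 19 members were lower on all 5 dosing days and Abcd2 and Cd36 were higher on all 5. How many of all genes kept 1 sign on all 5 days was not counted. The day 14 count rested on few animals and on the processing. It was 7 under median centring, 5 without control 1014, 10 without treated animal 2012 and 12 without 2013, and Etfa, Etfdh, Acat1, Scp2 and Ech1 were the calls that no single animal removed. Control 1014 held the highest Crot value of its group, 13.07 beside 12.45, 12.61 and 12.69, and the treated animals read 12.18, 12.19, 12.20, 12.22 and 12.52. The day 1 count was 1 without the livers with pancreas markers, between 3 and 5 without any 1 of 1001, 1003, 1004, 2002 and 2004, 5 under median centring, and up to 10 without another animal. The livers with pancreas markers on that day were controls 1001, 1002 and 1003 and treated animal 2004. Their removal also leaves fewer samples, and the 2 effects cannot be told apart. A fit of only the compared groups, which has fewer samples to estimate the spread, called 1, 1, 6, 2 and 1 members on days 1, 7, 14, 28 and 91, and array weights called 6 on day 7 and 2 on day 91.

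In humanized mice each single dosing day held called members, but the lower calls of day 1 rested on treated animal 6003. On that day 6 members were lower and 2 higher (7.78% and 3.95% of all genes), with Ppara at −0.49 and Crot at −0.48 lower and Ehhadh at 0.35 ± 0.114 (adjusted p = 0.0266) and Abcd3 higher. Without 6003, whose pancreas marker mean was 12.8, 2 members were called, both higher and 0 lower, and the same counts were found without the livers with pancreas markers. The Ehhadh call was lost without any 1 of 4 animals. The Ehhadh controls read 11.06, 11.27, 11.48, 11.59 and 11.79 and the treated animals 11.36, 11.74, 11.85, 11.92 and 12.09, which overlapped. On day 7, 4 were lower and 1 higher (2.02% and 2.82%), the rise being Cd36 at 0.77 ± 0.233 with controls of 8.51, 8.61, 8.64, 8.78 and 8.97 and treated animals of 9.16, 9.43, 9.61 and 9.67. These groups did not overlap, yet the call was lost without any 1 of 6 of the 9 animals, with adjusted p-values up to 0.146. On day 14, 10 were lower and 0 higher (4.54% and 7.34%), with Ppara at −0.79 ± 0.15 (adjusted p = 3.52e-05) and Cpt1a at −0.63 ± 0.131 (adjusted p = 0.000206). On day 28, 8 were lower and 2 higher (3.53% and 4.18%), the rises being Cd36 at 0.93 and Etfb at 0.14, the latter lost without any 1 of 3 animals. On day 91, Acat1 at −0.24 and Scp2 at −0.18 were lower and 0 higher (0.705% and 1.48%). Scp2 controls read 14.04, 14.07, 14.09, 14.10 and 14.15 that day and treated animals 13.84, 13.90, 13.94 and 13.96, with no overlap. Over the dosing days 20 members were lower every time and Etfb, Decr2, Abcd2 and Cd36 were higher every time, which was not counted over all genes. The day 1 count was 5 with no filter on dim genes and 4 or 5 without any 1 of 6001, 5002, 5003, 5004 and 5005. The day 7 count was 2 without 6006 or 6007 and 3 without 5008, the day 14 count 5 without 5015, and the day 91 count 1 without 6021 and 4 without 5022. A limma fit of only the compared groups called 0, 3, 3, 1 and 0 members on days 1, 7, 14, 28 and 91. With the mean of all probe sets Scp2 was 0.0466 on day 1 and 0.0182 on day 7, where its chosen probe set was called lower at −0.0896 and −0.13.

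In the knockout single days gave few calls. On day 1, Eci2 at −0.44 (adjusted p = 0.00183) and Ech1 at −0.28 (adjusted p = 0.0183) were lower and Abcd3 was higher (4.61% lower and 3.47% higher of all genes). The Eci2 controls read 10.43, 10.47, 10.56, 10.98 and 11.00 and the treated animals 10.16, 10.16, 10.21, 10.30 and 10.40, all below the controls. On day 28, Cpt1a at −0.51 ± 0.131 (adjusted p = 0.00988) was lower and Etfb at 0.12 (adjusted p = 0.0439) higher (2.65% and 2.51%). The Cpt1a call was lost without control 3016 (adjusted p = 0.0808) and the Etfb call without any 1 of 8 animals. The Ech1 call of day 1 was lost without 3001 or 3004. On days 7, 14 and 91 limma called 0 members, against 0.0158%, 0.325% and 3.45% of all genes in either direction. At an unadjusted p under 0.05, 4 were higher on day 7 (3.26% of all genes), 5 lower on day 14 (4.4%), and 1 higher and 2 lower on day 91 (6.58% and 12.2%). Etfa, Etfdh, Acat1 and Scp2 were lower on all 5 dosing days and 0 members were higher on all 5, again not counted over all genes. The day 1 count was 1 without 3001 and 5 without 3003, 3005 or 4004. The day 28 count was 0 without 3016 and 1 without any 1 of 3020, 4018, 4019 and 4020, and 1 without both 4019 and 4024, under median centring or with no filter on dim genes. A limma fit of only the compared groups called 0 on day 1 and 0 on day 28, and array weights called 1 on day 7.

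**Figure D2:**
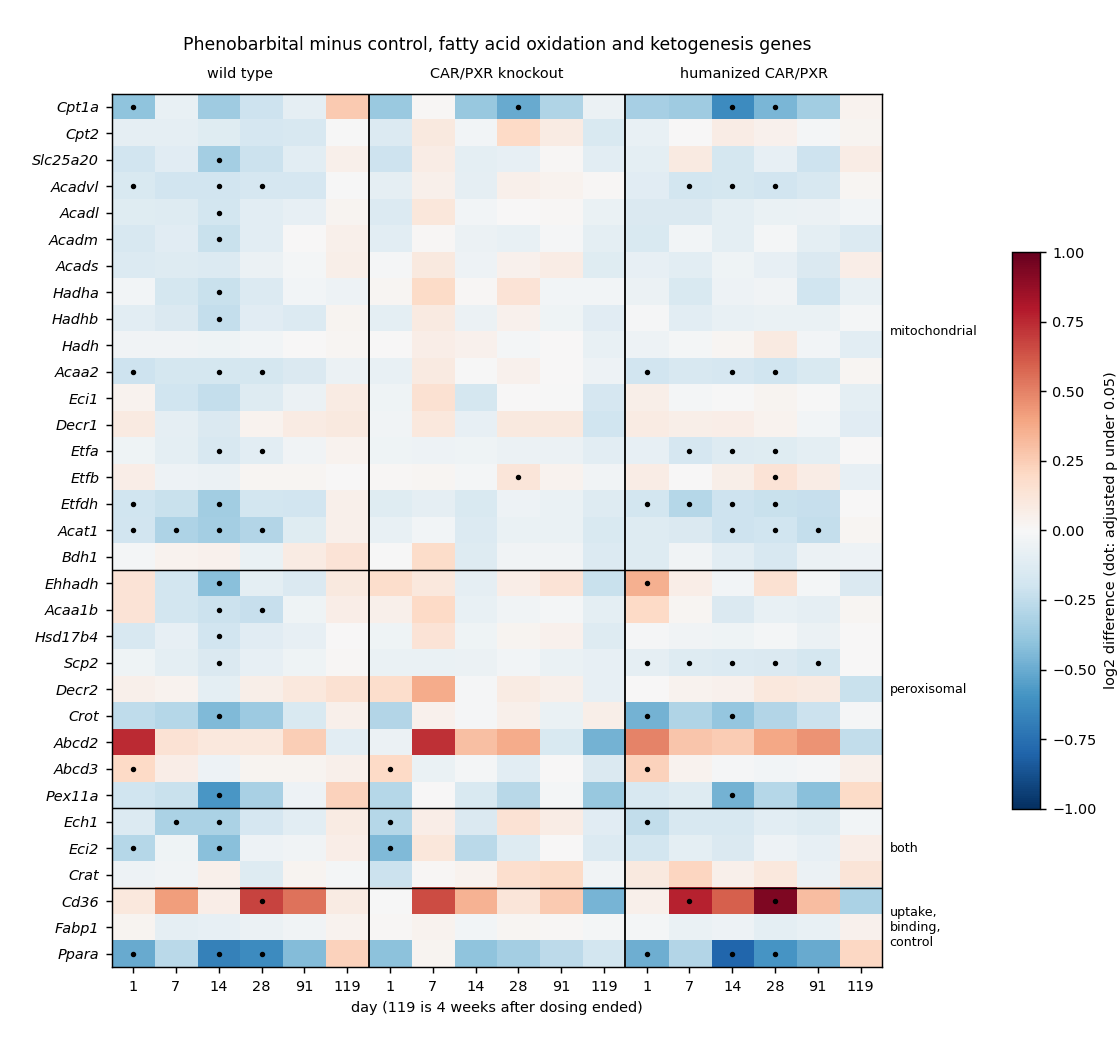
Log2 difference between phenobarbital and control livers for each tested member (rows) on each day (columns) in the 3 genotypes, coloured from −1 to 1; a dot marks an adjusted p under 0.05. The wild-type day 14 column holds 19 dots, and the day 119 columns hold 0.

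**Figure D3:**
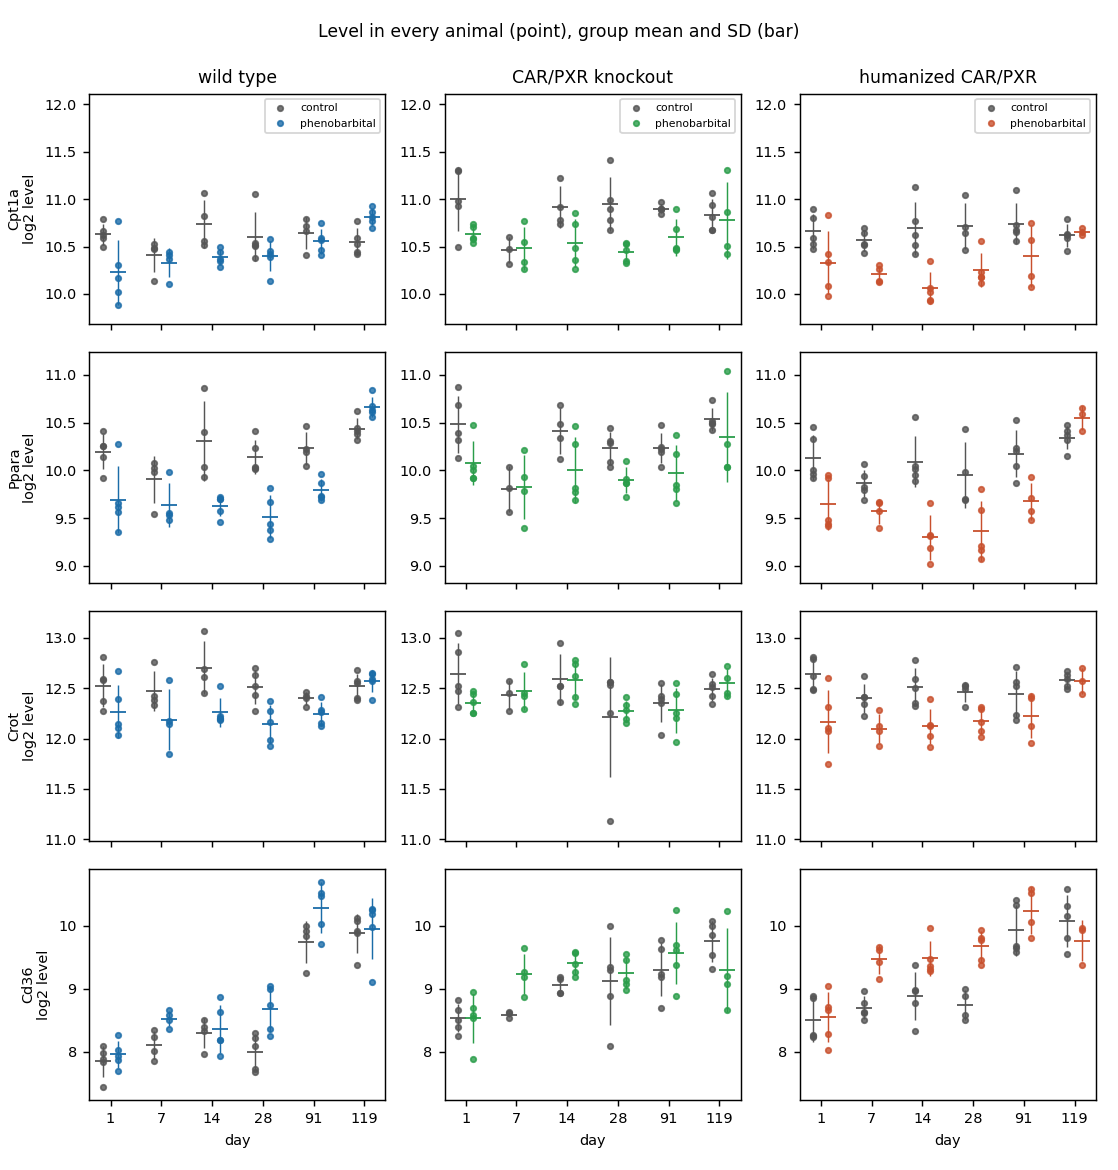
Log2 level of Cpt1a, Ppara, Crot and Cd36 in every animal (points) by day, with group mean and SD (bars), for control and phenobarbital arms of each genotype. On day 14 the treated humanized Ppara values of 9.02 to 9.66 lie below the control values of 9.89 to 10.56, and wild-type Cd36 controls are at 9.25 or higher on days 91 and 119.

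At day 119, 4 weeks after dosing ended, limma called 0 members in any genotype, where 0.0238% of all genes were called in wild-type, 0.111% in knockout and 0.214% in humanized mice. At an unadjusted p under 0.05, 1 member was higher in wild-type (2.46% of all genes), 8 were lower in knockout (4.25%) and 1 was lower in humanized mice (3.76%). Wild-type Ppara controls read 10.32, 10.38, 10.41, 10.44 and 10.62 then and formerly treated animals 10.56, 10.61, 10.63, 10.67 and 10.84, a difference of 0.23 ± 0.15 (adjusted p = 0.999). Ppara in humanized controls read 10.15, 10.32, 10.37, 10.41 and 10.48 and in formerly treated animals 10.41, 10.59 and 10.65. Of the formerly treated Ppara values, 10.63, 10.67 and 10.84 in wild-type and 10.59 and 10.65 in humanized mice lay above every control. The others lay within the control range. Cpt1a in formerly treated knockouts read 10.42, 10.51, 10.86 and 11.31 against 10.67, 10.67, 10.81, 10.94 and 11.06 in controls, with the last of the treated values from animal 4030. Without 4030, 1 member was called in the knockout. The change of the effect from day 1 to day 91 was also tested, and 0 members were called in wild-type, knockout or humanized mice, where 0.436%, 0.666% and 1.74% of all genes were. The unadjusted counts there were 1 lower in wild-type (4.96% of all genes), 5 higher and 1 lower in knockout (4.91% and 6.86%) and 3 lower in humanized mice (5.28%). Quantile normalization and median centring each called 1 in humanized mice.

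The compartments were compared by their counts and by the mean level of their members in each animal. Of the mitochondrial members 14 of 18 were lower in wild-type and 12 of 18 in humanized mice, and of the peroxisomal members 6 of 9 and 3 of 9, beside 19.7% and 17.5% of all genes. The median difference was −0.12 and −0.11 in wild-type mice and −0.10 and −0.02 in humanized mice, mitochondrial first. In the knockout 4 of 18 mitochondrial members and 1 of 9 peroxisomal members were lower (22.2% and 11.1%), beside 11% of all genes, with medians of −0.01 and 0.02. The difference between the compartments was not tested. The mean of the 18 mitochondrial members was 11.42 ± 0.08 (SD, n = 22) in wild-type controls and 11.31 ± 0.10 (n = 24) in treated mice, 11.46 ± 0.11 and 11.43 ± 0.07 in the knockout, and 11.44 ± 0.08 and 11.34 ± 0.08 in humanized mice. The mean of the 9 peroxisomal members was 11.19 ± 0.14 and 11.13 ± 0.19, 11.36 ± 0.16 and 11.37 ± 0.11, and 11.31 ± 0.12 and 11.28 ± 0.11 in the same order. The mitochondrial means of treated and control animals lay about 1 SD apart in wild-type and humanized mice, while the peroxisomal means lay closer. The 9 peroxisomal members include Abcd2, measured near the array median, whose mean rose from 4.82 to 5.11 in wild-type mice. It rose from 5.75 to 5.96 in the knockout and from 5.22 to 5.60 in humanized mice. The peroxisomal mean without Abcd2 was not computed. On wild-type day 7 the mitochondrial mean lay between 11.31 and 11.39 in controls and between 11.20 and 11.25 in treated mice. On day 1 the peroxisomal mean was higher in treated mice, at 11.15 against 11.08 in wild-type and 11.296 against 11.235 in humanized mice. It was lower in treated mice of both genotypes on days 7, 14, 28 and 91. In the knockout both means were higher in treated mice on day 7 (3 controls). They were 11.41 against 11.34 and 11.30 against 11.14, mitochondrial first. Both were lower there on days 1, 14 and 91. Wild-type controls themselves differed between days. Their mitochondrial mean was 11.37, 11.35, 11.47, 11.41 and 11.53 on days 1, 7, 14, 28 and 91, and their peroxisomal mean 11.08, 11.08, 11.22, 11.19 and 11.42. The values of day 91 were the highest of these 5 in both, the days between did not rise in order, and no test was run.

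**Figure D4:**
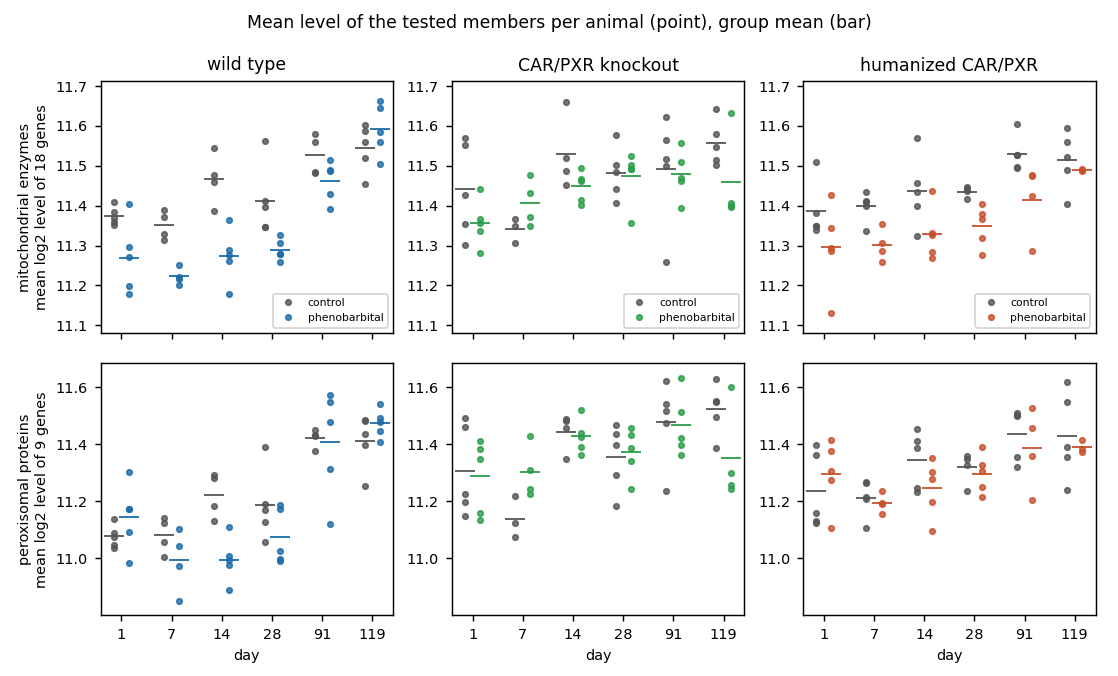
Mean log2 level of the 18 mitochondrial (top) and 9 peroxisomal (bottom) members in every animal (points) by day, with the group mean (bar), for control and phenobarbital arms. Wild-type treated animals lie below controls on day 7 in the top row, and wild-type controls on day 91 lie above those of day 1 in both rows.

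Without treatment the altered genotypes already differed from wild type in some members of each compartment. Over 6 days (27 wild-type, 27 knockout and 29 humanized controls), 8 of 33 members were higher and 2 lower in the knockout, against 11.5% and 10.9% of all genes. In humanized mice 8 were higher and 5 lower, against 11.6% and 16.5%. The share of lower members was thus near or below that of all genes in both. In the knockout 3 mitochondrial members were higher and 1 lower of 18, and 3 peroxisomal members were higher and 0 lower of 9. In humanized mice 2 were higher and 4 lower of 18, and 2 higher and 1 lower of 9. Cd36 had a low of 7.44, a median of 8.30 and a high of 10.13 in wild-type controls, 8.10, 9.16 and 10.08 in knockout and 8.23, 8.96 and 10.58 in humanized controls. Its difference from wild type was 0.41 ± 0.0958 (adjusted p = 0.000499) in the knockout and 0.49 ± 0.0934 (adjusted p = 1.26e-05) in humanized mice. Abcd2 had medians of 4.96, 5.77 and 5.07, and was higher in the knockout by 0.82 ± 0.139 (adjusted p = 1.22e-06). On day 91 the knockout controls of Abcd2 read 5.53, 6.15, 6.49, 6.56 and 6.66 and the wild-type controls 4.48, 5.31, 5.71 and 5.80. Of these knockout values 4 lay above all wild-type values.

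Pex11a had medians of 9.59, 9.86 and 9.98 in wild-type, knockout and humanized controls and was higher by 0.18 ± 0.068 (adjusted p = 0.042) and 0.33 ± 0.0664 (adjusted p = 3.84e-05). Decr2 had medians of 9.35, 9.66 and 9.53 and was higher by 0.22 ± 0.0364 (adjusted p = 5.81e-07) and by 0.16 (adjusted p = 0.000309). Cpt1a, with medians of 10.54, 10.89 and 10.63, was higher in the knockout by 0.25 ± 0.0569 (adjusted p = 0.000445). In the knockout Eci2, Acadl and Etfa were higher by 0.13, 0.08 and 0.05, and in humanized mice Eci1, Eci2, Crat, Decr1 and Fabp1 were higher by 0.17, 0.16, 0.10, 0.08 and 0.04. Ech1, with medians of 11.42, 11.40 and 11.43, was lower in the knockout by −0.10 ± 0.036 (adjusted p = 0.0338). Etfb, with medians of 11.94, 11.89 and 11.88, was lower in both altered genotypes by −0.06 and −0.07. Etfdh, with medians of 11.28, 11.36 and 11.20, was lower in humanized mice by −0.10 ± 0.0275. The other Etfdh probe set had the opposite sign in that comparison and did not pass. Acadvl, Acaa2 and Scp2 were lower in humanized mice by −0.06, −0.06 and −0.05, and the mean of all Scp2 probe sets was 0.0244.

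Several of these small untreated differences did not hold without the 19 livers with pancreas markers. In the knockout Pex11a then stood at 0.10 (adjusted p = 0.406), Eci2 at 0.07 (adjusted p = 0.382), Acadl at 0.06 (adjusted p = 0.135) and Etfa at 0.04 (adjusted p = 0.0922). In humanized mice Eci2 stood at 0.11 (adjusted p = 0.0768), Crat at 0.08 (adjusted p = 0.24), Decr1 at 0.08, Acadvl at −0.06 and Acaa2 at −0.06, none of which passed. Leaving out any 1 of 22 animals lost Pex11a and any 1 of 8 lost Ech1 in the knockout. In the humanized comparison with wild type the same held for Acaa2 with 27 animals, Decr1 with 19, Crat with 17 and Acadvl with 9. These animals came from both genotypes. Fabp1 was lost there without 1010 or 1014, both wild-type controls. Between the altered genotypes 6 members were lower and 1 higher in humanized controls, against 9.82% and 6.82% of all genes. Abcd2 at −0.49 ± 0.137, Ppara at −0.19, Cpt1a at −0.18, Etfdh at −0.10, Acadl at −0.06 and Etfa at −0.04 were lower and Eci1 at 0.12 was higher. The Acadl call was lost without any 1 of 15 animals, the Ppara call without any 1 of 4 and the Etfa call without 3007.

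**Figure D5:**
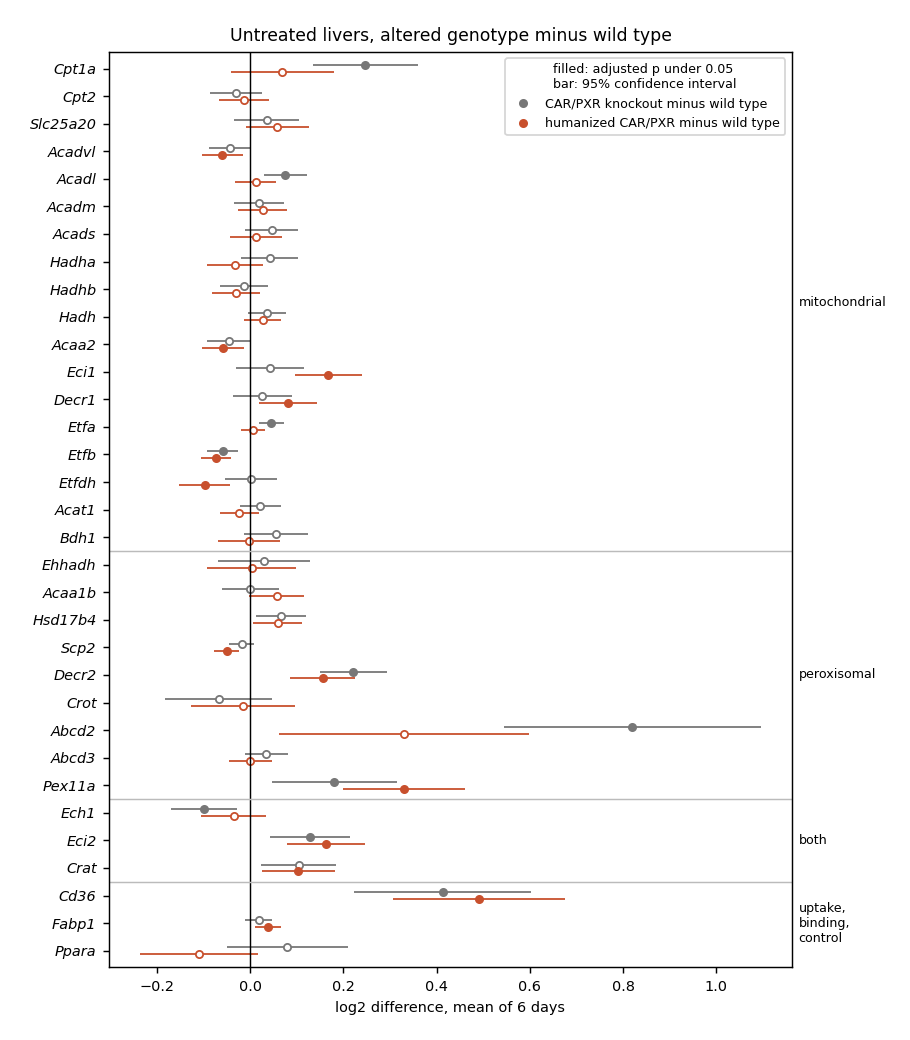
Log2 difference of untreated knockout (and of untreated humanized) from untreated wild-type livers for each tested member, mean of 6 days, with 95% confidence intervals; filled points passed an adjusted p of 0.05. Abcd2 in the knockout, at 0.82, is the largest value plotted, and Cd36 is higher in both genotypes.

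Of 56 other genes of the pathway, 47 were tested. In wild-type mice 11 were lower and 3 higher under phenobarbital, in knockout mice 5 and 5, and in humanized mice 12 and 5. The lower genes made up 23.4%, 10.6% and 25.5% of the 47 in that order, beside 19.7%, 11% and 17.5% of all genes, and the higher ones 6.38%, 10.6% and 10.6%, beside 11.8%, 8.64% and 14.9%. The wild-type and knockout shares of lower genes were thus near those of all genes. In wild-type mice the lowest called were Acot1, a cytosolic acyl-CoA thioesterase, at −0.93 ± 0.0976, the CoA-cleaving Nudt7 at −0.22 and the branched-chain dehydrogenase Acad8 at −0.20, and the higher ones were Acot4 at 0.22, Nudt19 at 0.18 and the peroxisome assembly gene Pex13 at 0.06. In humanized mice the ketone-using enzyme Oxct1 stood at −0.31 (adjusted p = 0.0392), Nudt7 at −0.23 and the fasting hormone Fgf21 at −0.17 (adjusted p = 0.0465). Pdk4, a kinase that spares glucose when fat is burned, was higher there by 0.57 ± 0.146 (adjusted p = 0.00104), with Ppard at 0.30 and Acacb, whose product restrains Cpt1a, at 0.30 (adjusted p = 0.0482). In the knockout the carnitine transporter Slc22a5 and the thioesterase Acot12 were both at −0.16 and Acad8 at −0.13, and Ppard at 0.25, Pex16 at 0.17 and Acad9 at 0.13 were higher. Between genotypes, 9 of these responses were higher and 2 lower in knockout than in wild-type mice, 1 higher and 0 lower in humanized than in wild-type mice, and 2 and 2 in humanized than in knockout mice. These were 19.1% and 4.26% in the first comparison (7.67% and 5.77% of all genes), 2.13% and 0% in the second (1.1% and 0.776%) and 4.26% each in the third (5.66% and 4.49%). Untreated, 9 (19.1%) were higher and 4 (8.51%) lower in the knockout, beside 11.5% and 10.9% of all genes, with Acot1 at 0.62 ± 0.0907, Acot3 at 0.60 and Acot4 at 0.40 higher and Ppard at −0.34, Slc16a6 at −0.20 and Acadsb at −0.15 lower. In untreated humanized mice 6 (12.8%) were higher and 3 (6.38%) lower, beside 11.6% and 16.5%, with Acot3 at 0.33, Acot1 at 0.31 and Acot2 at 0.20 higher and Ppard at −0.64 ± 0.0793, Acadsb at −0.16 and Acox3 at −0.11 lower. Acot1 to Acot4 are close paralogs, so that their probe sets may share signal. Alternative processing and the leaving out of animals are reported for calls of members only. How firm the calls among these 47 genes are, such as Oxct1, Fgf21 and Acacb, was not tested.

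Markers of other cell types were read beside these changes. Under phenobarbital 4 of 7 stellate cell markers were lower in wild-type livers and 4 of 7 in humanized livers (medians −0.19 and −0.15). In the knockout 0 were lower. In the order wild-type, humanized and knockout, 24, 19 and 7 of 33 members were lower, and 19.7%, 17.5% and 11% of all genes. With all 6 days pooled, day 119 included, the stellate marker mean lay between 7.95 and 8.56 in wild-type controls. In treated wild-type mice the stellate mean lay between 7.89 and 8.28. It lay between 7.87 and 8.52 and then 7.76 and 8.38 in humanized mice. In the knockout it lay between 8.00 and 8.51 and then 8.07 and 8.52. Of 7 hepatocyte markers 3 were lower in wild-type livers and 3 in humanized ones, with medians of −0.03 and −0.02. In the knockout 1 was higher, beside 8.64% of all genes. Cd36 is also expressed by adipocytes and endothelial cells. Under phenobarbital 0 of 4 adipocyte and 0 of 5 endothelial markers were called in wild-type and in knockout mice. In humanized mice 1 of each list was lower, beside 17.5% of all genes. Untreated, 1 of 4 adipocyte markers was higher in each altered genotype, beside 11.5% of all genes in the knockout and 11.6% in humanized mice. The mean adipocyte level lay between 4.97 and 6.45 in wild-type, 4.82 and 8.22 in knockout and 4.97 and 6.99 in humanized controls. Of 7 Kupffer cell markers 3 were higher in untreated knockouts, beside 11.5% of all genes. Over all 6 days their median was 8.38 in wild-type controls and 8.53 in treated mice. It was 8.68 and 8.70 in the knockout and 8.53 and 8.55 in humanized mice. The B and plasma cell markers stood at 6.10 and 6.72, 6.56 and 6.50, and 6.51 and 6.84 in the same order. Lists for T and NK cells, neutrophils, cholangiocytes and erythroid cells were also read and are not described here. All 6 pancreas acinar markers were lower in untreated humanized than wild-type mice (median −1.33), beside 16.5% of all genes. In the knockout 0 of 6 passed by limma (median −1.02, 6 lower at an unadjusted p under 0.05). The part of these cell types in the members' changes was not tested, beyond the values given without the livers with pancreas markers.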

How the data were processed

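The members, lists and tests were chosen with earlier results of these data known. Per the submitters' processing notes, the deposited values were made with RMA (version not given in the sources used here), which corrects background, quantile-normalizes and summarises probes. The deposited values are log2 expression, between 2.11 and 15.07, with array medians of 5.15 to 5.23. The dose is taken from the general treatment text, which names several concentrations and a second age, since samples carry no dose label.

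Of 45101 probe sets, 64 were controls, 34958 had 1 gene symbol in the platform annotation, 932 several and 9211 none. Genes above the median of the array on fewer than 3 arrays were left out as dim (5571 genes). The fit held 166 samples in 36 group means (R 4.3.3 with limma 3.58.1, functions lmFit and eBayes, two-sided, 130 residual degrees of freedom, prior of 3.98). Differences are means over days of treated minus control groups. P-values were adjusted by Benjamini-Hochberg over all tested genes within each of 30 contrasts, and "lower", "higher" or "called" means an adjusted p under 0.05. Replicates are separate animals per the labels, and their number limits the precision. Medians of the arms described are given for Cpt1a, Ehhadh and Ppara and for the 2 largest called each way per genotype and untreated contrast. Values of their single animals are given for some days only, among them days without overlap. All treated Cpt1a values lay below the controls on 2 days in humanized mice and on 1 day in each other genotype. Wild-type Pex11a was apart on 1 day, and so was knockout Decr2. Other animal values were chosen after the values were seen. RMA compresses weak and near-saturated signals. The fit was tested on simulated data, and the outcome is not given here. Alternatives were quantile normalization, median centring, averaged probe sets, no filter on dim genes, only the compared groups, other variance settings, array weights and animals left out.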

Additional observations from a re-analysis of the deposited data

Results flagged for a closer look

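Outlying animals were sought in 34 groups of 4 or 5 for 13 measures, and 30 of 442 tests stood out, where chance gives about 1 in 20. In the mean of the mitochondrial members the treated knockout 4030 of day 119 stood high at 11.63 beside others of 11.40 to 11.41, and it stood high in the peroxisomal mean at 11.60 beside 11.24 to 11.30. Treated knockout 4018 of day 28 was low in the mitochondrial mean at 11.36 beside 11.49 to 11.52, and humanized controls 5005 of day 1 and 5025 of day 91 were high at 11.51 and 11.60.

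For Cpt1a, treated humanized 6020 of day 28 was high at 10.56, wild-type control 1007 of day 7 low at 10.14 and wild-type control 1017 of day 28 high at 11.05. For Ehhadh, treated knockout 4028 of day 119 was low at 11.15, treated humanized 6016 of day 28 high at 11.94 and 6022 of day 91 low at 11.63. For Ppara, treated knockout 4005 of day 1 was high at 10.48, humanized control 5015 of day 14 high at 10.56 and treated wild-type 2009 of day 7 high at 9.98. For Cd36, treated wild-type 2027 of day 119 was low at 9.11 and treated humanized 6012 of day 14 high at 9.97. For Crot, knockout control 3016 of day 28 was low at 11.18 beside 12.25 to 12.56, treated wild-type 2026 of day 119 low at 12.38 and 2015 of day 14 high at 12.52.

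For Decr2, humanized control 5005 and wild-type control 1001 of day 1 were high at 9.62 and 9.42. Abcd2 was high in humanized control 5004 of day 1 at 6.89 beside 4.70 to 4.93, and Ech1 was low in wild-type control 1010 of day 7 at 11.26. Etfb was low in knockout control 3025 of day 91 at 11.76 and in humanized control 5019 of day 28 at 11.78. Pex11a was low on day 119 in knockout control 3029 at 9.83 and wild-type control 1028 at 9.70. Etfdh was low in knockout controls 3016 of day 28 at 10.91 and 3025 of day 91 at 10.89, and in treated humanized 6003 of day 1 at 10.64.

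The response to phenobarbital differed between knockout and wild-type mice for 14 members by limma's test of the difference, all less negative in the knockout. The differences on the log2 scale were 0.25 for Crot, 0.22 for Ehhadh, 0.19 for Acaa2, 0.18 for Hadha, 0.18 for Ech1, 0.18 for Acat1, 0.17 for Cpt2, 0.17 for Acadvl, 0.15 for Hsd17b4, 0.14 for Hadhb, 0.13 for Etfdh, 0.13 for Acaa1b, 0.13 for Acads and 0.12 for Acadl. Between humanized and knockout mice it differed for 9 members, all more negative in humanized mice. The differences were −0.28 for Crot, −0.19 for Acaa2, −0.17 for Hadha, −0.16 for Acadvl, −0.13 for Etfdh, −0.11 for Acat1, −0.0761 for Scp2, −0.0745 for Fabp1 and −0.0682 for Etfa.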

How the results depend on the processing

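Of 185 calls of members over the 30 contrasts, quantile normalization kept 173, median centring 143, averaged probe sets 140, no filter on dim genes 158, a fit of only the compared groups 108, a trended robust prior 184, array weights 173, arrays 6026 and 6030 kept apart 184, leaving out animals 4019 and 4024 180, and leaving out the livers with pancreas markers 144. The count of called members over the dosing days stayed within 22 to 26 in wild-type, 5 to 10 in knockout and 18 to 22 in humanized mice over 10 alternatives. Only Scp2 reversed, with averaged probe sets: to 0.026 in the knockout dosing mean, 0.0466 on humanized day 1, 0.0182 on humanized day 7 and 0.0244 in untreated humanized against wild-type mice. Another Scp2 probe set was called the opposite way in humanized mice. The other counts that moved by over 1.5 times follow. Quantile normalization called 1 member in humanized day 91 against day 1. Median centring called 5 on wild-type day 1, 7 on wild-type day 14, 1 on knockout day 28, 8 for knockout against wild-type responses and 1 for humanized day 91 against day 1. Averaged probe sets called 1 for humanized against wild-type and 5 for humanized against knockout responses. No filter called 1 on knockout day 28 and 5 on humanized day 1. Only the compared groups called 5 in the knockout dosing mean, 1, 1, 6, 2 and 1 on wild-type days 1, 7, 14, 28 and 91, 0 and 0 on knockout days 1 and 28, and 0, 3, 3, 1 and 0 on humanized days 1, 7, 14, 28 and 91. That fit has fewer samples to estimate the spread. Array weights called 6 and 2 on wild-type days 7 and 91, 1 on knockout day 7 and 2 for humanized against wild-type responses. Leaving out 4019 and 4024 called 1 on knockout day 28. Leaving out the livers with pancreas markers called 1 on wild-type day 1, 2 on humanized day 1 and 1 for humanized against wild-type responses. The cause was not tested in the other cases.

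Leaving out 1 animal at a time never reversed a call and lost 580 of 7103 pairs of call and animal, with 74 of 185 calls lost at least once. Counts then ranged from 3 to 10 on wild-type day 1, 1 to 2 on day 7, 5 to 19 on day 14 and 3 to 7 on day 28, 1 to 5 on knockout day 1, 0 to 2 on day 28 and 0 to 1 on day 119, 2 to 11 on humanized day 1, 2 to 4 on day 7, 5 to 9 on day 14 and 1 to 4 on day 91, and 0 to 2 for humanized against wild-type responses. On wild-type day 28 the count was 3 without 1017 and 4 without 1020, 2016, 2017, 2018 or 2019, and on day 7 it was 1 without 1006, 1007, 1008, 2008 or 2009. No paired analysis was possible because the animal numbers are unique and pair no animals across groups. The number of arrays and the compression of weak signals limit what Abcd2 can show.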
